A study of Mus musculus with 20 samples.

Results

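The dentate granule cell genes described here are Prox1, Dsp, C1ql2, C1ql3, Calb1, Stxbp6 and Dock10. They were taken by symbol, and each matched 1 row of the deposited count table, which makes 7 of 55536 genes. Granule cells are the principal neurons of the dentate gyrus. They receive the cortical input to the hippocampus and pass it on through their axons, the mossy fibres, to CA3 pyramidal neurons and to the mossy cells of the hilus. New granule cells are added in adult life, and granule cells are known for sparse firing and for changes of their mossy fibres in epilepsy. None of the 7 genes is exclusive to granule cells in a whole hippocampus: Prox1 and Calb1 are also found in interneurons, Calb1 in CA1 pyramidal cells, Dsp in epithelial and meningeal cells, and Dock10 in blood cells.

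The tissue was hippocampus of male mice aged 12 weeks with the strain label C57BL/6J, either wild-type or labelled Fkbp5 knockout; the labels state neither the deleted exons nor the cells in which they are deleted. FKBP5 is a co-chaperone that lowers the sensitivity of the glucocorticoid receptor. Mice were injected 1 time into the peritoneum with saline or with lipopolysaccharide (LPS, an inflammatory molecule of the bacterial outer membrane) at 3 mg/kg, and tissue was taken on day 7. The 4 groups (wild-type with saline, wild-type with LPS, and the knockout with either) held 5 libraries each, and the labels do not say whether each library is 1 animal, so the p-values measure the spread between libraries.

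Total counts per library ran from 16652992 to 27230202. Fkbp5 itself averaged 63.1 ± 6.71 CPM (SD, n = 5; CPM is the count scaled to a common library total, with TMM factors) in wild-type saline and 66.2 ± 4.87 in wild-type LPS, against 30.7 ± 4.45 in knockout saline and 29.5 ± 4.06 after LPS in knockouts. The libraries fell into 2 sets by replicate number. Replicates 1 and 2 of every group had 4.66% to 5.68% of their counts on mitochondrial genes, and replicates 3 to 5 had 8.41% to 11.4%. Between these sets 64.3% of the 16419 genes tested differed at an adjusted p under 0.05 (edgeR quasi-likelihood test, Benjamini-Hochberg adjustment, also used below), so the genotype and LPS values are also given within each set. Each set holds libraries of all 4 groups. Unless a term is named, the fits of genotype and LPS below have none for the set. The spread behind their p-values then includes the difference between the sets. For the genotype over both treatments such a fit called 72 of 16419 genes, and 152 with a term for the set.

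All 7 genes were detected in all 20 libraries, with at least 550 counts each, and all 7 passed the filter on low counts. Per kilobase of exon (RPKM, over all libraries), C1ql2 had the highest level, 70.1, followed by Calb1 with 32.1, Stxbp6 with 27.6 and C1ql3 with 27.3. Prox1 had 15.3, Dsp 6.59 and Dock10 3.37. The levels of Stxbp6 and C1ql3 differed by less than their spread over libraries, and those of Calb1 and Stxbp6 lay within 1 SD of each other. Transcripts of these 7 genes were thus present in each library, though none of the genes is exclusive to granule cells. In whole tissue, fewer cells of a type and less RNA per cell cannot be told apart.

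C1ql2 was the member that differed between genotypes. C1ql2 is a secreted C1q-like protein of mossy fibre synapses, where it helps to place kainate receptors opposite the release sites. Its gene (ENSMUSG00000036907) lies at chr1:120340582-120343174 (GRCm38, plus strand), the values count reads over its exons, and its row held 978 to 4527 counts per library. In wild-type saline the 5 libraries had 149.0, 130.1, 241.6, 227.2 and 237.8 CPM, and in wild-type LPS 120.7, 147.6, 156.1, 220.5 and 237.3 CPM. In knockout saline they had 56.1, 125.7, 106.5, 96.3 and 110.2 CPM, and in knockout LPS 78.8, 86.2, 116.6, 55.2 and 105.1 CPM. Every knockout library lay below every wild-type library of the same treatment. Across treatments the ranges overlapped, since knockout saline replicate 2 was above wild-type LPS replicate 1. Groups that do not overlap were found in 0.737% of all genes tested for the genotype comparison after saline and in 0.828% after LPS, and C1ql2 was the only member among them in both.

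Averaged over both treatments, C1ql2 had a log2 fold change of -0.996 in the knockout (± 0.17 SE, 95% interval -1.36 to -0.63), a fold of 0.50 (edgeR adjusted p = 0.00645). This was 1 of 7 members called, against 0.439% of all genes tested. After saline alone the difference was -0.99 ± 0.25 (edgeR adjusted p = 0.242), and after LPS alone it was -0.997 ± 0.25 (edgeR adjusted p = 0.229). Neither passed the threshold, where 0.171% of all genes did after saline and 0.146% after LPS. With the replicate number as a block both passed, at edgeR adjusted p = 0.0459 after saline and 0.0496 after LPS. There 59 and 63 of 16419 genes passed. The same block without the 3 libraries highest in thalamus markers gave C1ql2 -1.01 (edgeR adjusted p = 0.0609) and -0.93 (edgeR adjusted p = 0.300). With a term for the library set C1ql2 had edgeR adjusted p = 0.0585 after saline and 0.0481 after LPS. The interaction of genotype and LPS was -0.0031 ± 0.35 for C1ql2, with a 95% interval from -0.72 to 0.72. The fitted differences of C1ql2 after the 2 treatments were alike in size, and the interval of their difference was wide.

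C1ql2 was then read within each library set, and the difference between the sets' values was not tested. In replicates 3 to 5 the 6 wild-type libraries had 156.1 to 241.6 CPM and the 6 knockout libraries 55.2 to 116.6 CPM (log2 fold change -1.17, edgeR adjusted p = 0.00726). That fit called 1257 of 15523 genes. In replicates 1 and 2 the 4 wild-type libraries had 120.7 to 149.0 CPM and the 4 knockout libraries 56.1 to 125.7 CPM (-0.64, edgeR adjusted p = 0.757). The overlap in that set came from 1 knockout saline library, replicate 2. Leaving out each library in turn gave -1.06 to -0.92, with edgeR adjusted p between 0.0037 and 0.0189. Without wild-type LPS replicates 1 and 4 and knockout LPS replicate 1, which had the highest thalamus markers, it was -0.99 (edgeR adjusted p = 0.0273).

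**Figure D1:**
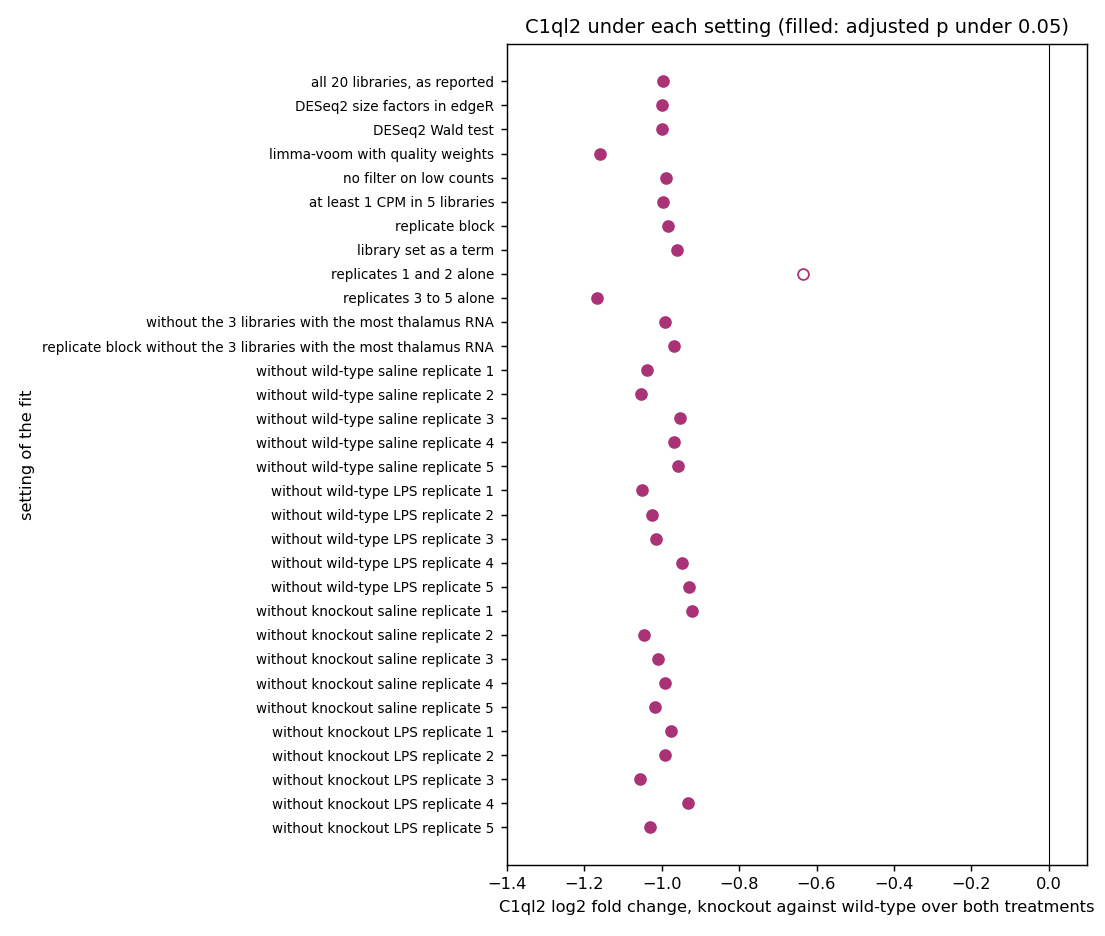
Log2 fold change of C1ql2 in knockout against wild-type over both treatments (x axis), as reported and under each of 31 other settings (y axis); filled points have an adjusted p under 0.05. All points lie below 0, from -1.17 to -0.64, and the open point is the fit of replicates 1 and 2 alone.

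C1ql2 also stood lower relative to the other granule cell genes of the same library. The difference between C1ql2 and the mean of the other 6 members, in log2 units, had a median of 1.07 (0.15 to 1.51) in the 10 wild-type libraries and of -0.01 (-0.92 to 0.33) in the 10 knockout libraries. In replicates 3 to 5 it ran from 0.86 to 1.51 in wild-type and from -0.56 to 0.05 in knockout, without overlap. In replicates 1 and 2 the genotypes overlapped, at 0.15 to 0.90 in wild-type (median 0.50) and -0.92 to 0.33 in knockout (median 0.21). No share over all genes was computed for this measure. The ratio of C1ql2 to Prox1, in CPM, was 0.73 to 2.06 in wild-type and 0.38 to 0.92 in knockout. The ratio of C1ql2 to its close relative C1ql3 was 1.82 to 3.56 in wild-type and 0.78 to 2.03 in knockout. These ratios were computed after the C1ql2 values were seen and are given as a description.

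**Figure D2:**
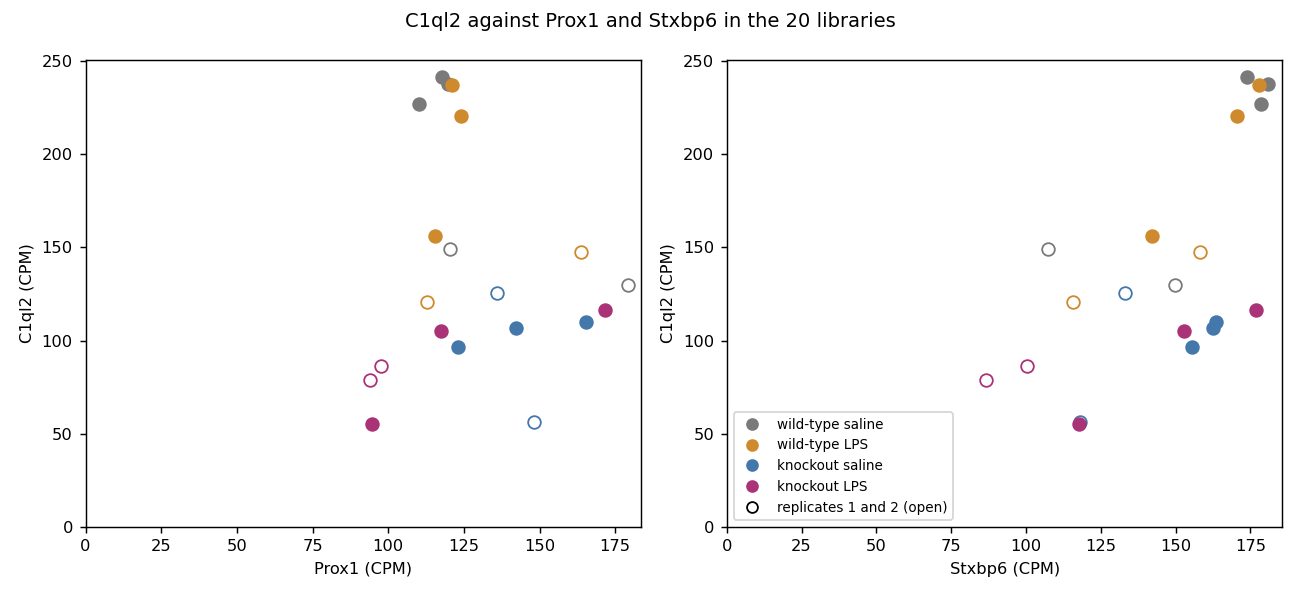
C1ql2 (y axis, CPM) against Prox1 and Stxbp6 (x axes, CPM) in the 20 libraries, colored by group; open circles are replicates 1 and 2. In replicates 3 to 5 the wild-type libraries sit at 156.1 to 241.6 CPM of C1ql2 and the knockout libraries at 55.2 to 116.6 CPM, over a shared range of Prox1 and Stxbp6.

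None of the genes around C1ql2 passed the test. Within 5 Mb, 24 other genes were tested, and 0 were called for the genotype over both treatments by edgeR, with 0 at an unadjusted p under 0.05. The nearest of them, Steap3, 67877 bases away, had a log2 fold change of 0.07 ± 0.17. Of the partners of C1q-like proteins, 6 were tested and 0 called, where the background is again 0.439%. Among them are the receptor Adgrb3, the kainate receptor subunits Grik2 and Grik4, and the presynaptic adhesion protein gene Nrxn3. Grik4 had 0.19 ± 0.09 (unadjusted p = 0.0405, edgeR adjusted p = 0.99) and Nrxn3 had 0.21 ± 0.10. Relatives in the family were C1ql1 at 0.02 ± 0.12 and the cerebellins Cbln1, Cbln2, Cbln3 and Cbln4, of which 0 of the 5 tested were called; C1ql4 was below the filter.

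The 250 bases before the start site are shown for C1ql2, the gene that differed, and for Prox1, the identity factor that did not pass the test. Both are from RefSeq's table for GRCm38.p6, 5′ to 3′ in the direction of the gene. C1ql2 is at chr1:120340332-120340581 on the plus strand, and Prox1 at chr1:190170828-190171077 on the minus strand, 1 of 2 Prox1 starts in that table. The capitals mark CAGATG, an E-box of the kind read by neuronal bHLH factors.
C1ql2: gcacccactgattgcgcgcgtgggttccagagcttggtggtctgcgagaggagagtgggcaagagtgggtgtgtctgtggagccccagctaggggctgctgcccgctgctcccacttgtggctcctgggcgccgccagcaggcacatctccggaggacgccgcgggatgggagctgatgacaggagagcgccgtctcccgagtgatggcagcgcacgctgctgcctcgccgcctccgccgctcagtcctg
Prox1: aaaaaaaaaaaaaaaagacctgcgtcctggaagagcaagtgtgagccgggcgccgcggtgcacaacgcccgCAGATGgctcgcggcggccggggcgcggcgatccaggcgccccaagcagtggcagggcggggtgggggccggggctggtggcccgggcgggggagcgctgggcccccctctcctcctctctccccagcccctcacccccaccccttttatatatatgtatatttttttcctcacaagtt
The C1ql2 window is 68.8% G and C and the Prox1 window 64.8%, against a median of 52.4% over the 32851 windows of that table. Both strands were searched for AGAACA, a half-site of the glucocorticoid response element, and for the E-boxes CAGATG and CAGCTG, whose matches cannot lie on the same 6 bases. Of the 7 members, 6 were in the table, with 8 windows; Calb1 was not matched. AGAACA was in 0 of the 8 windows (16.1% of all windows hold it). CAGATG was in 3 of the 8, 1 of Prox1 and 2 of Dock10 (14.4% of all windows). CAGCTG was in 1, a Dock10 window (4271 of all windows). The C1ql2 window holds none of these letters.

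Prox1 is the homeobox transcription factor that sets and keeps granule cell identity. The gene (ENSMUSG00000010175) lies at chr1:190118035-190170714, minus strand. Its libraries had 120.4, 179.3, 117.7, 110.2 and 119.7 CPM in wild-type saline, 112.7, 163.7, 115.5, 124.0 and 121.2 in wild-type LPS, 148.2, 136.1, 142.1, 123.1 and 165.3 in knockout saline, and 93.9, 97.7, 171.6, 94.8 and 117.3 in knockout LPS. The 4 groups overlapped. Over both treatments the genotype difference was 0.00 (95% interval -0.25 to 0.25), with -0.28 in replicates 1 and 2 and 0.20 in replicates 3 to 5. A change of the size seen for C1ql2 lies outside the interval for Prox1 over all libraries. The antisense gene Prox1os shares 1.59% of the exon bases of Prox1. How reads on those bases were counted is not known, since the strand setting is not given in the sources used here.

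Dsp encodes desmoplakin, which anchors intermediate filaments to desmosomes and serves as a granule cell marker in the hippocampus. The gene (ENSMUSG00000054889) is at chr13:38151294-38198577, plus strand. Dsp had 39.1, 90.5, 40.4, 41.1 and 52.2 CPM in wild-type saline, 47.5, 90.5, 53.0, 56.7 and 51.9 in wild-type LPS, 80.1, 63.4, 76.5, 53.9 and 102.6 in knockout saline, and 45.8, 56.2, 98.9, 49.8 and 82.1 in knockout LPS. Wild-type replicate 2 of either treatment lay among the high knockout libraries, and the groups overlapped. The genotype difference was 0.52 ± 0.26 after saline (edgeR adjusted p = 1) and 0.33 ± 0.19 over both treatments (edgeR adjusted p = 1). In the fit with limma-voom and quality weights, Dsp passed after saline (0.77, adjusted p = 0.0304) and over both treatments (0.55, adjusted p = 0.0273). That fit called 362 of 16419 genes after saline and 536 over both treatments. Of the 10 meningeal markers, 9 were also above 0 in the knockout after saline (median 0.54, 3 at an unadjusted p under 0.05, 0 called), and their part in the Dsp values was not tested. Replicates 1 and 2 alone gave Dsp -0.13 over both treatments, and replicates 3 to 5 gave 0.66.

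Calb1 encodes calbindin, a cytosolic calcium buffer that mature granule cells carry at high levels. The gene (ENSMUSG00000028222) is at chr4:15881264-15908064, plus strand. Calb1 had 126.9, 131.5, 145.6, 165.1 and 169.4 CPM in wild-type saline, 113.8, 115.4, 144.5, 141.8 and 162.7 in wild-type LPS, 164.1, 185.3, 175.2, 196.3 and 186.3 in knockout saline, and 109.7, 144.7, 195.6, 151.0 and 188.7 in knockout LPS. The knockout saline libraries were all above the wild-type saline mean of 147.7, and the groups overlapped. Over both treatments Calb1 was at 0.26 ± 0.10 in the knockout (95% interval 0.05 to 0.47, unadjusted p = 0.0184, edgeR adjusted p = 0.748), where 4.79% of all genes had an unadjusted p under 0.05. After saline it was at 0.30 ± 0.14 (unadjusted p = 0.0496, edgeR adjusted p = 1), against 2.67% of all genes. With the replicate number as a block Calb1 had edgeR adjusted p = 0.0509 over both treatments, where 176 of 16419 genes passed. With a term for the library set it had edgeR adjusted p = 0.0649, where 152 genes passed. Without the 3 libraries highest in thalamus markers it had edgeR adjusted p = 0.489. All 31 alternatives for Calb1 over both treatments lay above 0, from 0.21 to 0.32. Calb1 passed in replicates 3 to 5 alone (0.23, edgeR adjusted p = 0.0329) and had 0.32 in replicates 1 and 2 (edgeR adjusted p = 0.757). Over all genes, 1257 of 15523 passed in replicates 3 to 5 and 10 of 17718 in replicates 1 and 2. The sign of the Calb1 difference was opposite to that of C1ql2.

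C1ql3 is the second C1q-like protein of the mossy fibres, and Stxbp6 (amisyn) binds SNARE proteins and limits exocytosis. C1ql3 (ENSMUSG00000049630, chr2:13003457-13011806, minus strand) had 55.3 to 80.5 CPM after saline and 48.1 to 81.2 after LPS in wild-type mice, and 62.0 to 89.6 and 39.6 to 81.3 in knockout mice, with overlapping groups. The opposite-strand gene Gm37811 covers 61.0% of its exon bases and had 262 counts in total against 27362 for C1ql3, so reads of the pair could not be separated if strand was not used. The genotype difference of C1ql3 over both treatments was 0.01 ± 0.13, with -0.12 in replicates 1 and 2 and 0.09 in replicates 3 to 5. Stxbp6 (ENSMUSG00000046314, chr12:44852484-45074709, minus strand) had 107.3 to 181.0 CPM after saline and 115.6 to 177.9 after LPS in wild-type mice, and 118.0 to 163.4 and 86.5 to 176.8 in knockout mice. The groups overlapped. Its genotype difference was -0.19 ± 0.13 (edgeR adjusted p = 1), with -0.27 in replicates 1 and 2 and -0.14 in replicates 3 to 5.

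Dock10 activates small GTPases that shape dendritic spines. The gene (ENSMUSG00000038608) is at chr1:80501073-80758527, minus strand. Dock10 had 71.7, 113.8, 44.5, 37.2 and 43.7 CPM in wild-type saline, 68.2, 116.8, 45.3, 52.6 and 35.9 in wild-type LPS, 87.9, 76.1, 62.0, 44.2 and 64.2 in knockout saline, and 54.2, 52.6, 57.9, 51.0 and 53.0 in knockout LPS. In the first 3 groups replicates 1 and 2 were the highest libraries, and in knockout LPS the 5 libraries lay within 51.0 to 57.9 CPM. The genotype difference was -0.07 ± 0.21 over both treatments, with -0.47 in replicates 1 and 2 and 0.36 in replicates 3 to 5.

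**Figure D3:**
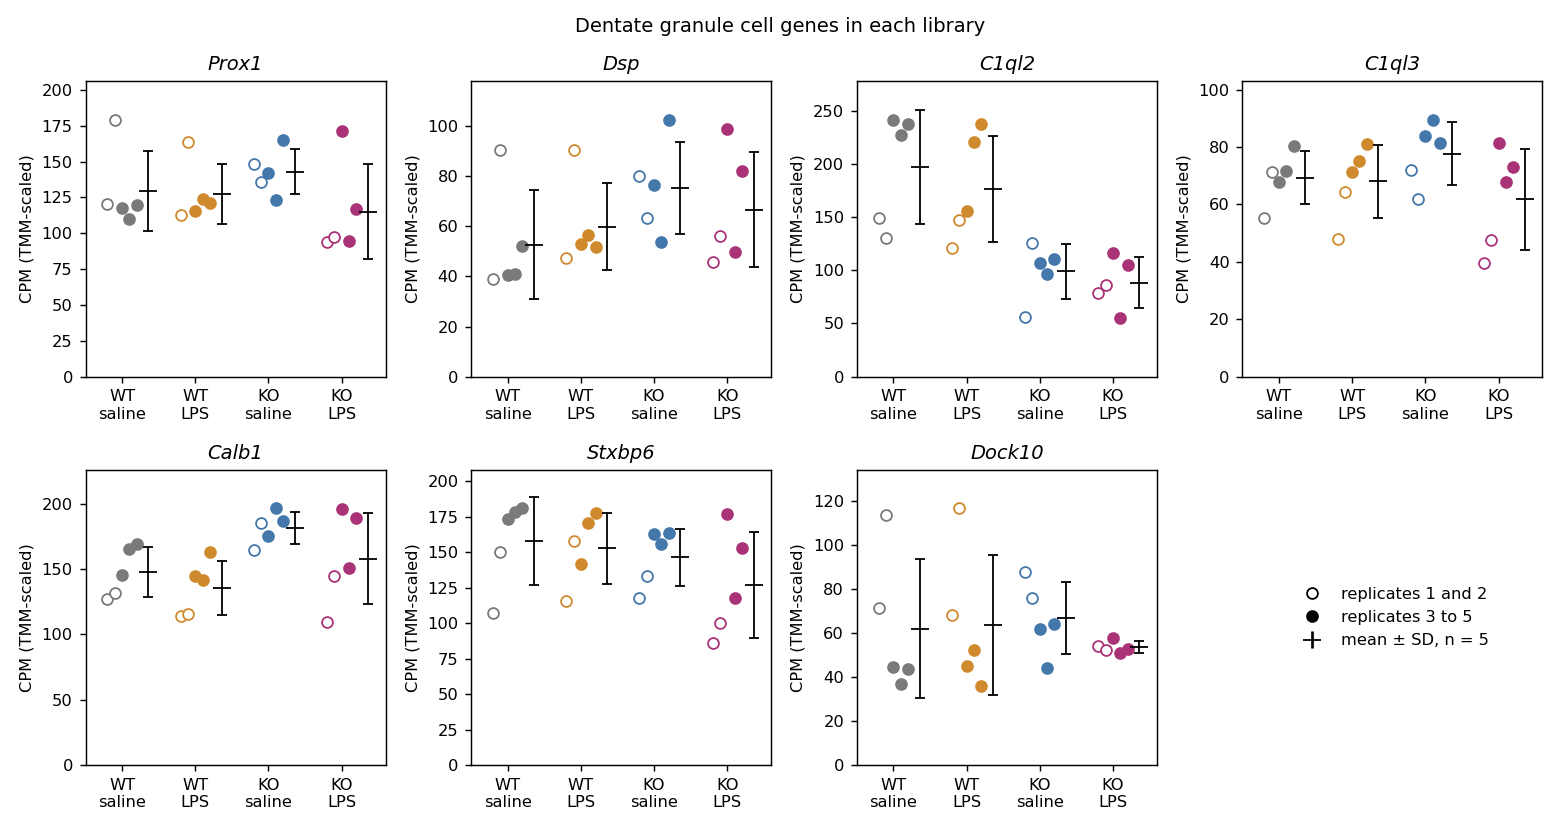
Level of each granule cell gene (y axis, CPM from 0) in every library of the 4 groups (x axis); open circles are replicates 1 and 2, filled circles replicates 3 to 5, and the bars give the mean ± SD of 5 libraries. C1ql2 averages 197 ± 53.3 and 176 ± 49.99 CPM in the wild-type groups and 99.0 ± 26.2 and 88.4 ± 23.8 CPM in the knockout groups, while the groups of the other genes overlap.

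LPS left the 7 genes below the threshold in both genotypes on day 7. In wild-type mice 5 of 7 had a lower fitted level after LPS, with a median log2 fold change of -0.03, and 0 were called, as were 0 (0%) of all genes by edgeR. The sign of that median turned with the setting. It was 0.04 with 2 of 7 below 0 without the 3 libraries highest in thalamus markers, and 0.02 with 2 of 7 without wild-type LPS replicate 1. It was 0.06 with 3 of 7 in replicates 3 to 5 and -0.04 with 4 of 7 in replicates 1 and 2, and 0.02 with 3 of 7 with limma-voom. In that comparison 340 genes had an unadjusted p under 0.05, and DESeq2 called 2 and limma-voom 3 genes, no member among them. The 95% interval for Prox1 in wild-type mice was -0.38 to 0.33 and for Calb1 -0.42 to 0.17. The LPS effect over both genotypes called 0 of the 7 and 0.0426% of all genes.

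In knockout mice all 7 members had a fitted value below 0 after LPS, with a median of -0.21 and a range of -0.33 to -0.16, where 46.9% of all genes lay below 0 with a median of 0.01. The values of C1ql3 (-0.33 ± 0.18), Dock10 (-0.32 ± 0.30) and Prox1 (-0.31 ± 0.17) were the lowest. None was called (background 0.00609%), and 0 had an unadjusted p under 0.05 (background 1.75%). With the replicate number as a block 4 of the 7 had an unadjusted p under 0.05, where 1135 of 16419 genes did, and 0 were called. In replicates 1 and 2 alone the median was -0.50, and in replicates 3 to 5 it was -0.11. Without knockout LPS replicate 3 it was -0.36, and without knockout LPS replicate 1 it was -0.12. The 7 genes' mean log2 level, set against that over all libraries, was -0.52, -0.33 and -0.34 in knockout LPS replicates 1, 2 and 4, and 0.27 and 0.06 in replicates 3 and 5. The members thus split the knockout LPS libraries, and the spread was larger there (SD 0.32) than in wild-type saline (0.17), wild-type LPS (0.18) or knockout saline (0.11). Knockout LPS replicate 1 also had low CA1 markers (-0.73) and high thalamus markers (0.32) on the same scale. Replicate 2 had 0.15 for CA1 and -0.40 for thalamus, and replicate 4 had 0.47 and 0.02. For striatum markers replicate 2 had -0.55 and replicate 4 had 0.67, the lowest and the highest of the 20 libraries. Of the 10 thalamus markers 9 were tested, and their summed level after saline was 97.2 to 110.0 CPM in wild-type and 90.7 to 124.9 in knockout mice. After LPS it was 93.9 to 168.6 CPM in wild-type and 95.01 to 140.5 in knockout mice. Without the 3 libraries highest in thalamus markers the members' median was -0.12. All 10 meningeal markers also lay below 0 for LPS in knockout mice (median -0.43), and 9 of the 10 did so in the interaction (median -0.90), with 0 called. Their summed level was 67.0 to 170.6 CPM in knockout mice after saline and 76.8 to 114.5 after LPS. In wild-type mice it was 52.2 to 109.6 CPM after saline and 66.5 to 146.7 after LPS. The part of neighbouring tissue in the members' values was not tested. The interaction of genotype and LPS was below 0 for all 7, with a median of -0.29, where 45.2% of all genes lay below 0. C1ql2 had -0.0031 there. The count below 0 changed with the setting. It was 7 of 7 in replicates 1 and 2 (median -0.47) and 4 of 7 in replicates 3 to 5 (-0.18). It was 6 of 7 with the replicate block, 5 of 7 with limma-voom and 5 of 7 without knockout LPS replicate 1. For the interaction 0 of the 7 and 0 (0%) of all genes were called by edgeR, DESeq2 or limma-voom. In edgeR 182 genes had an unadjusted p under 0.05.

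**Figure D4:**
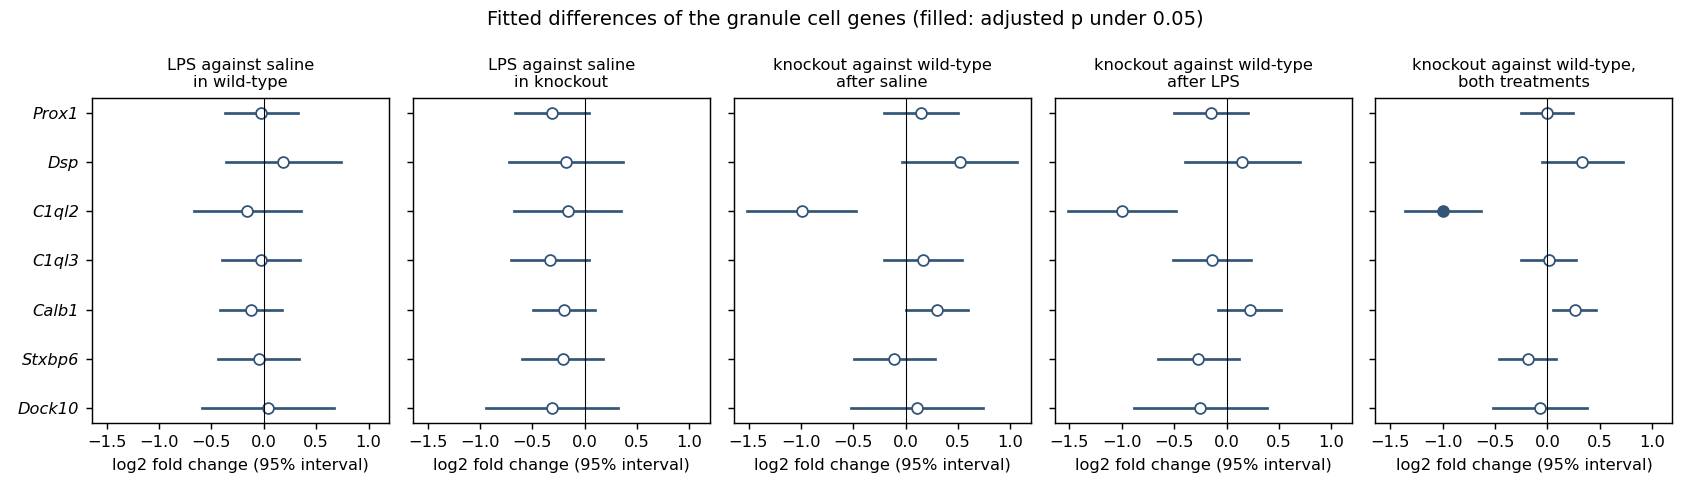
Log2 fold change (x axis, with 95% interval) of each granule cell gene (y axis) in 5 comparisons; the filled point has an adjusted p under 0.05. C1ql2 at -0.996 in knockout against wild-type over both treatments is the filled one, and all 7 genes lie below 0 for LPS in knockout.

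Between the library sets 5 of the 7 genes passed the test, against 64.3% of all genes. C1ql2 (-0.43), C1ql3 (-0.43), Calb1 (-0.32) and Stxbp6 (-0.44) were lower in replicates 1 and 2, and Dock10 (0.69) was higher. Prox1 (0.04 ± 0.12) and Dsp (0.06 ± 0.20) did not pass. Without the 3 libraries highest in thalamus markers, the value of C1ql2 was -0.39 and no longer passed (edgeR adjusted p = 0.0858).

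Correlations between the 21 pairs of members were computed across the libraries of each set. In replicates 1 and 2 (n = 8, exact permutation test) 19 pairs had a positive Pearson r, with a median of 0.52. Prox1 and Dock10 had r = 0.978 there (Spearman coefficient 0.952, exact permutation p = 1.98e-04 and 0.00114, adjusted 0.00833 and 0.0209 over 42 pairs), and 0.967 without the 2 libraries farthest from the median. In replicates 3 to 5 (n = 12, permutation test) 15 pairs were positive, with a median of 0.37. Dsp and Dock10 had r = 0.812 (Spearman coefficient 0.790, permutation p = 0.00132 and 0.00326, adjusted 0.0131 and 0.0209), and 0.707 without the 2 farthest libraries. These values include differences between the groups. With the group means removed, r was 0.623 for Dsp and Dock10 in replicates 3 to 5. For Prox1 and Dock10 in replicates 1 and 2 it was then 0.987. In replicates 3 to 5 the r of C1ql2 with the other 6 had a median of -0.24, from -0.57 with Dock10 to 0.778 with Stxbp6. With the group means removed, all 6 were above 0 in that set, from 0.187 with Dock10 to 0.970 with Stxbp6. In replicates 1 and 2 they then ran from -0.212 with C1ql3 to 0.467 with Calb1. Those with Prox1, Dsp, C1ql3 and Dock10 were below 0. Before that removal, the median r in replicates 1 and 2 was 0.217 for C1ql2 and 0.208 for Calb1. Pairs that passed after adjustment numbered 5 in replicates 1 and 2 and 3 in replicates 3 to 5. The points share library depth and tissue makeup.

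Among the genes most like the mean of the members over the 20 libraries, with the means of each group within each set removed, were Sema5a (r = 0.977), Slc8a2 (0.940), Epha7 (0.937) and Map6d1 (0.927). They are 4 of the top 5 of 16412 genes compared, and the values are a description. For single members the closest were Dgkh for Prox1 (0.948), Lrp1b for Dsp (0.964), Sec13 for C1ql2 (0.904), Cnot6l for C1ql3 (0.934), Dnaja3 for Calb1 (0.926), Sema5a for Stxbp6 (0.955) and Sp1 for Dock10 (0.906).

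Other lists of the dentate gyrus were read from the same fit. Of 12 further granule cell genes, 0 were called for the genotype over both treatments and 7 lay above 0, with a median of 0.05. At an unadjusted p under 0.05, 3 were lower in the knockout, where 402 of all 16419 genes were. The 3 were chosen after their values were seen: Plk5 (-0.45 ± 0.16), Trpc6 (-0.30 ± 0.11) and Akap7 (-0.24 ± 0.09), with edgeR adjusted p of 0.61, 0.586 and 0.638. Of 9 transcription factors of granule cell fate, Neurod1 (0.06 ± 0.08) and Lef1 (-0.24 ± 0.32) among them, 0 were called. Of 8 genes of immature granule neurons and their progenitors, 0 were called and 7 lay below 0, with a median of -0.10. Of all genes, 53.8% lay below 0. Igfbpl1 (-0.77 ± 0.20, unadjusted p = 0.00122, edgeR adjusted p = 0.167) and Dcx (-0.33 ± 0.11, unadjusted p = 0.00543, edgeR adjusted p = 0.428), also chosen after their values were seen, had the smallest p of that list. For LPS in knockout mice, 9 of the 12 further granule cell genes and 8 of the 8 immature genes lay below 0, with medians of -0.16 and -0.09 and 0 called. In that comparison 46.9% of all genes lay below 0. There Rfx3 had -0.28 ± 0.13 (unadjusted p = 0.0382, edgeR adjusted p = 1) and Maml2 -0.36 ± 0.24, and Draxin of the immature list had -0.28 ± 0.29.

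**Figure D5:**
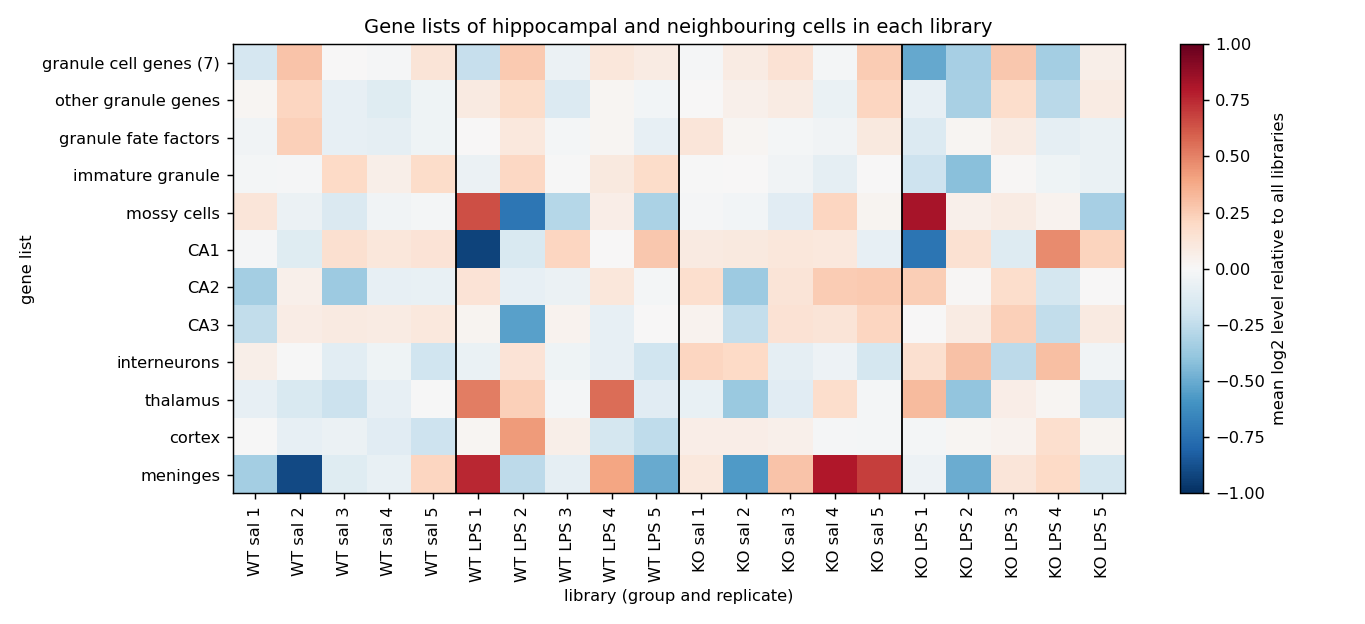
Mean log2 level of each gene list relative to all libraries (color) in the 20 libraries (x axis, WT wild-type, KO knockout, sal saline), with the granule cell genes in the first row. Knockout LPS replicates 1, 2 and 4 have -0.52, -0.33 and -0.34 in that row. In the same order they have -0.73, 0.15 and 0.47 for CA1 and 0.32, -0.40 and 0.02 for thalamus.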

How the data were processed

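The deposited values are raw gene counts, whole numbers not normalized by the authors. Per the submitters' processing notes, Trimmomatic 0.38, FastQC, MultiQC and featureCounts 1.6.0 were used with mm10. The aligner, the annotation release and the strand setting are not given in the sources used here. Per the labels' protocols, libraries were made from total RNA with an NEBNext Ultra kit.

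Symbols and positions came from GENCODE M21 (GRCm38), which matched 100% of the 55536 identifiers. Differences were tested with edgeR 4.0.16 in R 4.3.3 (TMM, filterByExpr by group, robust quasi-likelihood fit of all 20 libraries, 16419 genes, Benjamini-Hochberg adjustment, threshold 0.05). The fit was tested on simulated data, drawn with the same spread for all genes and no difference between the library sets. Since the real sets differ, that test does not show how the fit handles them. Library scores are means of log2(CPM + 0.5). RPKM used the union of exons. Correlations used Python 3.11.15 with scipy 1.17.1 and 100000 permutations for the larger set.

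Alternatives were DESeq2 1.42.0 (also its size factors in edgeR), limma 3.58.1 (voom with quality weights), no filter, at least 1 CPM in 5 libraries, the groups compared alone, the replicate number as a block, a term for the library set, each set alone, the fit without wild-type LPS replicates 1 and 4 and knockout LPS replicate 1 (most thalamus RNA), and leaving out each library. The block without those 3 libraries was chosen after seeing the data.

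The labels give the groups the same replicate numbers. After removal of group means, the 30 same-number pairs of libraries had r from 0.323 to 0.880 (median 0.527), all above 0.1. Pairs of unlike number had r from 0.197 to 0.734 (median 0.538) within a set and from -0.747 to -0.170 between the sets, so the numbers could not be told apart from the sets. Libraries correlating best with their own number were 10 of 20. No 2 replicates were near-identical: their chi-square per gene was 3.87 to 136.

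The 7 members, the gene lists and the tests were chosen with earlier results of these data known. Genes named outside the members were the 2 of each list with the smallest p for LPS in knockout, those most like the members, and those said to be chosen after their values were seen. Some genes of these lists are not reported here.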

Additional observations from a re-analysis of the deposited data

Results flagged for a closer look

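In the 28 combinations of a member and a group, 1 library stood far from the other 4 in 4 cases, where chance gives about 1 in 20. All 4 were replicate 2 of a wild-type group, in Prox1 and Dsp. Across replicates 1 and 2 these genes had r = 0.83, so the 4 cases are not independent and cannot be weighed against that rate. Prox1 was at 179.3 CPM in wild-type saline replicate 2, with the other libraries at 110.2 to 120.4, and at 163.7 CPM in wild-type LPS replicate 2, with the others at 112.7 to 124.0. Dsp was at 90.5 CPM (90.493) in wild-type saline replicate 2, with the others at 39.1 to 52.2, and at 90.5 CPM (90.455) in wild-type LPS replicate 2, with the others at 47.5 to 56.7. Both libraries belong to the set of replicates 1 and 2.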

How the results depend on the processing

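C1ql2 lay below 0 in knockout against wild-type over both treatments in all 31 alternatives run. Dsp, not called as reported, was called over both treatments at 0.55 with limma-voom and had -0.13 in replicates 1 and 2 alone. The number of members called over both treatments was 1 as reported. It was 2 with limma-voom (C1ql2 and Dsp), 0 in replicates 1 and 2 alone and 2 in replicates 3 to 5 alone (C1ql2 and Calb1). After saline, 0 members were called as reported, 1 with DESeq2 (C1ql2, adjusted p = 0.0262), 2 with limma-voom, 1 with the replicate block (C1ql2, edgeR adjusted p = 0.0459) and 1 in replicates 3 to 5 alone (C1ql2, edgeR adjusted p = 0.0493). After LPS, 0 were called as reported and 1, C1ql2, with DESeq2 (adjusted p = 0.0258), limma-voom (adjusted p = 0.00565), the replicate block (edgeR adjusted p = 0.0496) and the set term (edgeR adjusted p = 0.0481). The cause of these differences was not tested. Leaving out each library in turn changed no count of called members in these comparisons. The replicate block changed no other call of a member, and without the 3 libraries highest in thalamus markers it called 0 members after saline and 0 after LPS; over all genes it called 176 in place of 72 for the genotype over both treatments, 59 in place of 28 after saline and 63 in place of 24 after LPS. The limma-voom fit called 536, 362 and 62, DESeq2 122, 48 and 53, and replicates 3 to 5 alone 1257, 500 and 118. The fit of only the groups compared was not run for the main effects, the interaction and the library sets. The members had at least 550 counts in each library.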
